A study of Mus musculus with 12 samples.

Results

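The 10 inflammatory cytokine and chemokine genes Tnf, Il1b, Il6, Il12b, Ccl2, Ccl3, Ccl4, Ccl5, Ccl22 and Cxcl10 were followed in RNA-seq libraries of mouse ventral hippocampus. They were taken by gene name from a raw count table of 54532 genes, and each name matched 1 row. The genes were selected on their raw counts and scaled counts in these same 12 libraries, so their levels and fold changes are given as a description.

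The study holds 12 libraries in 4 groups of 3, all labelled WT. The control group had no treatment. The CSDS group was exposed to CSDS. The SSDS-GFP group carried AAV8-eGFP, an adeno-associated virus for a green fluorescent protein, and was exposed to SSDS. The SSDS-shACOT12 group had a knockdown of the ACOT12 gene in the liver and was exposed to SSDS. Only abbreviations are given for the stressors, which in work on depression usually mean chronic and subthreshold social defeat stress. The series title places the study in liver acetyl-CoA metabolism and brain inflammation. The names of the SSDS columns carry "TBG", usually the thyroxine-binding globulin promoter of hepatocytes, so neither construct is labelled as acting in the brain. Strain, age and sex are not in the labels used here, and no SSDS group without virus was analysed. Nothing in the labels says that the 3 libraries of a group are separate animals, so a p-value measures only the spread between these libraries.

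Cytokines and chemokines are small secreted proteins of the immune response. Tnf, Il1b, Il6 and Il12b act on receptors of many cell types, while chemokines of the CC and CXC classes draw leukocytes along a gradient. In brain tissue microglia and border macrophages are usual sources, transcription is low at rest, and pattern receptors switch it on through NF-kB, AP-1 and interferon regulatory factors.

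Promoter sequences are shown because the 10 genes were high in the same libraries. The RefSeq promoter table of GRCm38.p6, the assembly also called mm10, held 7 of the 10 genes, and Ccl2, Ccl4 and Ccl5 were not among them. The window is the 250 bases before the RefSeq start, 5′ to 3′ on the gene's strand. It is chr5:92348890-92349139 on the minus strand for Cxcl10, chr5:30012864-30013113 on the plus strand for Il6 and chr17:35202008-35202257 on the minus strand for Tnf. Capitals mark matches to the 4 motifs searched.
Cxcl10: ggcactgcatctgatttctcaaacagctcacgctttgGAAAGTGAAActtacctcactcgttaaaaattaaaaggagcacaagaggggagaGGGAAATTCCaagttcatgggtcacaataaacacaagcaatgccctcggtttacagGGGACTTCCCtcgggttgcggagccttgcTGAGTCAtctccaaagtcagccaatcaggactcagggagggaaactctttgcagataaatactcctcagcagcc
Il6: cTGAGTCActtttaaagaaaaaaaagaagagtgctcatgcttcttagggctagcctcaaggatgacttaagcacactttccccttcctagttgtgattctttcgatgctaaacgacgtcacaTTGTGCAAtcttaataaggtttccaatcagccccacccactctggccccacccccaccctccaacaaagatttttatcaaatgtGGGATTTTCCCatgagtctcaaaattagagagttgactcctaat
Tnf: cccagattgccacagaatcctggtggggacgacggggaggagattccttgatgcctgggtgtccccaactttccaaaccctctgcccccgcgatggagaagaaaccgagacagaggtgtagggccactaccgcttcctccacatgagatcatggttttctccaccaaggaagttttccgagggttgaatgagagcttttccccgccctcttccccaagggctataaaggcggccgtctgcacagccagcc

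The motifs were searched on both strands. The NF-kB motif kappaB, written GGGA, then any 4 bases, then CC, matched in 3 of 7 promoters (Il6, Ccl22 and Cxcl10) and in 17.6% of the 32851 promoters of that length. The interferon-stimulated response element, GAAA, then any 2 bases, then GAAA, matched in 1 of 7 (Cxcl10) and in 2.98% of all promoters. The AP-1 motif TGANTCA matched in 2 of 7 (Il6 and Cxcl10) and in 6.75% of all. The C/EBP motif TTGCNNAA matched in 1 of 7 (Il6) and in 9.56% of all. Cxcl10 holds kappaB matches that begin 159 and 103 bases before the start, the response element at 213 and the AP-1 match at 74. In Il6 the kappaB match on the gene's strand begins at 44, overlapping 1 on the other strand at 43. The Tnf window printed above has no match to these letters, which says nothing of the factors that act there.

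All 10 genes had their highest level of the 12 libraries in SSDS-GFP replicate 3 and their second highest in SSDS-shACOT12 replicate 3. Of the 16915 genes with enough counts to be tested, 8.6% were highest in SSDS-GFP 3 and 2.31% had this same order. Second place was narrow for Ccl4 (5 counts, next highest 3) and Cxcl10 (17, next highest 16). Library totals ran from 14656714 to 17694570 counts, and depth did not mark out these libraries (16803073 and 16507015). The 10 genes summed to 3827 counts in SSDS-GFP 3, or 218.5 CPM (the count scaled to library size), which was 0.0228% of the library. They summed to 521 counts (32.2 CPM) in SSDS-shACOT12 3, 98 (6.13 CPM) in CSDS 1, and 16 to 54 (1.15 to 3.34 CPM) in the other 9 libraries. The limit that a count of 0 allows, 3 counts, lay between 0.171 and 0.216 CPM. The mitochondrial share of counts was 3.23% and 4.31% for SSDS-shACOT12 1 and 3 and 6.31 to 9.24% for all others, with SSDS-GFP 3 at 6.65%; the part of RNA quality in the levels was not tested.

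**Figure D1:**
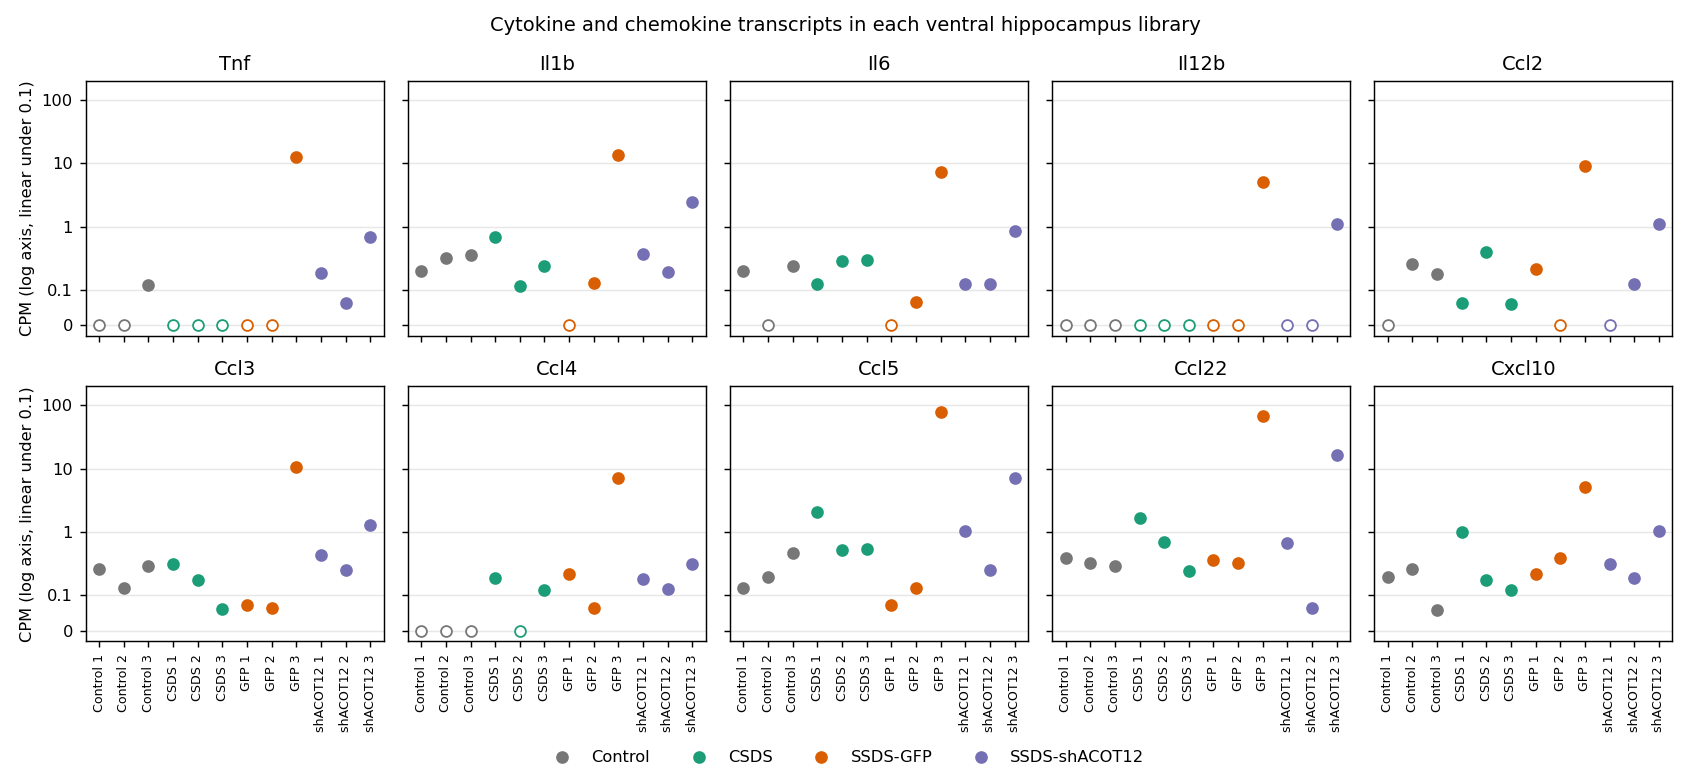
CPM of each of the 10 genes (vertical, log axis that is linear under 0.1) in each of the 12 libraries (horizontal), 1 point per library, open where the count was 0. SSDS-GFP 3 is the highest point in all 10 panels, from 5.08 CPM (Il12b, Cxcl10) to 79.4 CPM (Ccl5), and SSDS-shACOT12 3 is second.

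Among the cytokines, Tnf (ENSMUSG00000024401, chromosome 17, 35199381 to 35202007, minus strand, mm10), the tumour necrosis factor that triggers NF-kB in its target cells, was close to absent outside these libraries. It had 0, 0 and 2 counts in the controls and 0 in each CSDS library. The SSDS-GFP libraries gave 0, 0 and 219 counts, and those of SSDS-shACOT12 gave 3, 1 and 11. SSDS-GFP 3 thus held 92.8% of all Tnf counts in the study.

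Il1b (ENSMUSG00000027398, chromosome 2, 129364570 to 129371139, minus strand) encodes interleukin 1 beta, made as a precursor and cut by caspase 1. It had 3, 5 and 6 counts in the controls and 11, 2 and 4 in CSDS. The SSDS-GFP libraries gave 0, 2 and 236 counts, and those of SSDS-shACOT12 gave 6, 3 and 40. The SSDS-GFP group therefore held both the lowest and the highest library, and its mean of 4.54 CPM had an SD of 7.74 (n = 3), against 0.293 ± 0.0833 in the controls.

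Il6 (ENSMUSG00000025746, chromosome 5, 30013114 to 30019981, plus strand) encodes an interleukin that signals through gp130 and STAT3. Its counts were 3, 0 and 4 in the controls, 2, 5 and 5 in CSDS, 0, 1 and 128 among the SSDS-GFP libraries, and 2, 2 and 14 among those of SSDS-shACOT12. The control and CSDS libraries overlapped, and outside the 2 high libraries no count passed 5.

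Il12b (ENSMUSG00000004296, chromosome 11, 44400063 to 44414033, plus strand) encodes the p40 subunit shared by interleukins 12 and 23, a product of activated dendritic cells and macrophages. It had 89 counts in SSDS-GFP 3 and 18 in SSDS-shACOT12 3. In the other 10 libraries it had 0 counts, which makes it the only 1 of the 10 genes with counts in the 2 high libraries alone.

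Ccl2 (ENSMUSG00000035385, chromosome 11, 82035571 to 82037453, plus strand) encodes the monocyte attractant that acts on CCR2. Its counts were 0, 4 and 3 in the controls, 1, 7 and 1 in CSDS, 3, 0 and 162 among the SSDS-GFP libraries, and 0, 2 and 18 among those of SSDS-shACOT12. A library with 0 counts occurred in each group but CSDS.

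Ccl3 and Ccl4 encode neighbouring macrophage inflammatory proteins, which draw leukocytes. Ccl3 (ENSMUSG00000000982, chromosome 11, 83647844 to 83649355, minus strand) had 4, 2 and 5 counts in the controls, 5, 3 and 1 in CSDS, 1, 1 and 186 among the SSDS-GFP libraries, and 7, 4 and 21 among those of SSDS-shACOT12. Ccl4 (ENSMUSG00000018930, chromosome 11, 83662584 to 83664683, plus strand) had 0 counts in every control, 3, 0 and 2 in CSDS, 3, 1 and 127 among the SSDS-GFP libraries, and 3, 2 and 5 among those of SSDS-shACOT12. Of the 10 genes Ccl4 had the fewest counts in SSDS-shACOT12 3. The 95% counting interval of these 5 counts (1.62 to 11.7) overlapped that of 3 counts (0.619 to 8.77), so its second place is uncertain. Both genes lie near Ccl5 on the same chromosome.

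Ccl5 and Ccl22 were the most abundant of the 10. Ccl5 (ENSMUSG00000035042, chromosome 11, 83525778 to 83530518, minus strand) encodes RANTES, which draws T cells and monocytes. It had 2, 3 and 8 counts in the controls and 33, 9 and 9 in CSDS. The SSDS-GFP libraries gave 1, 2 and 1391 counts, and those of SSDS-shACOT12 gave 17, 4 and 114. The CSDS libraries all lay above the controls, while the first 2 SSDS-GFP libraries lay at or below them.

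Ccl22 (ENSMUSG00000031779, chromosome 8, 94745590 to 94751699, plus strand) encodes a dendritic cell and macrophage chemokine that acts on CCR4. It had 6, 5 and 5 counts in the controls, 27, 12 and 4 in CSDS, 5, 5 and 1200 among the SSDS-GFP libraries, and 11, 1 and 263 among those of SSDS-shACOT12. Its lowest and second highest counts of the study were both in SSDS-shACOT12.

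Cxcl10 (ENSMUSG00000034855, chromosome 5, 92346638 to 92348889, minus strand) encodes a chemokine induced by interferon that acts on CXCR3. Its counts were 3, 4 and 1 in the controls, 16, 3 and 2 in CSDS, 3, 6 and 89 among the SSDS-GFP libraries, and 5, 3 and 17 among those of SSDS-shACOT12. CSDS 1, with 16, came within 1 count of SSDS-shACOT12 3. CSDS 1 was also the highest of the other 10 libraries for Il1b, Ccl5 and Ccl22.

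The order of the genes within the high libraries was compared per length, on the authors' FPKM scale. In SSDS-GFP 3 Ccl5 stood at 81.3 FPKM and Ccl22 at 28.95. Ccl3 (13.6), Ccl4 (10.8), Ccl2 (7.98), Tnf (7.49) and Il1b (6.94) followed, and Il6 (2.96), Il12b (2.54) and Cxcl10 (2.22) were lowest. In SSDS-shACOT12 3 Ccl5 (7.16 FPKM) and Ccl22 (6.82) were close to equal. The other 8 genes there lay between 0.348 (Il6) and 1.65 (Ccl3).

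The gap between SSDS-GFP 3 and SSDS-shACOT12 3 differed among the genes. The ratio of CPM between these libraries was 4.21 for Ccl22 (95% counting interval 3.68 to 4.83), 4.56 for Il12b (2.73 to 8.05), 4.83 for Cxcl10 (2.85 to 8.66) and 5.45 for Il1b (3.88 to 7.82). It was 8.17 for Ccl3 (5.19 to 13.5), 8.31 for Ccl2 (5.09 to 14.4) and 8.44 for Il6 (4.85 to 15.9). The widest gaps were those of Ccl5 at 11.3 (9.30 to 13.8), Tnf at 18.4 (10.1 to 37.4) and Ccl4 at 23.4 (9.79 to 73.4). The intervals of 6 genes, Il6, Ccl2, Ccl3, Ccl5, Tnf and Ccl4, lay wholly above that of Ccl22. They cover counting error in 2 libraries only and compare those libraries, not the conditions. As a share of all counts of the 10 genes, Ccl5 made up 36.4% in SSDS-GFP 3 and 21.9% in SSDS-shACOT12 3, and Ccl22 31.4% and 50.5%.

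**Figure D2:**
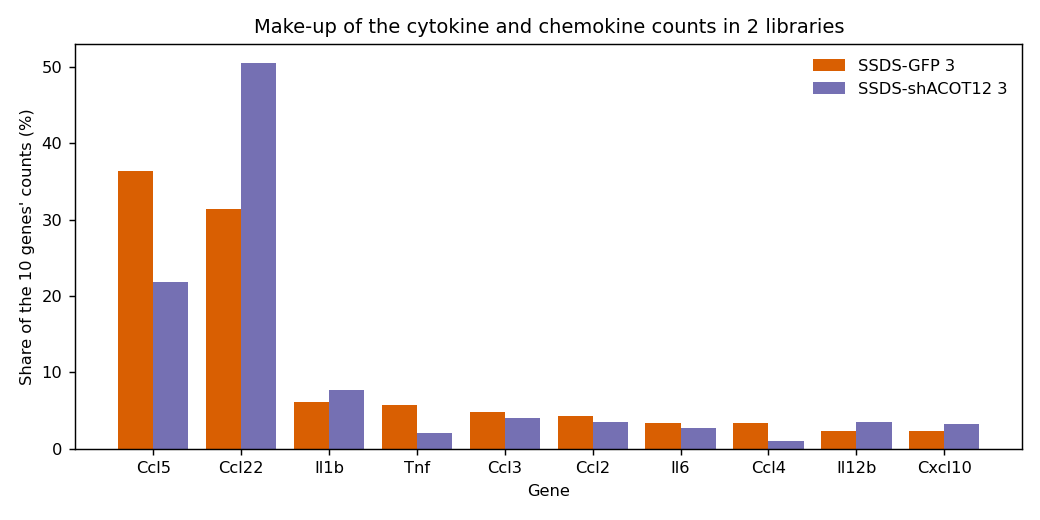
Share of the 10 genes' summed counts (vertical, percent) that each gene (horizontal) took in SSDS-GFP 3 and in SSDS-shACOT12 3, 1 bar per library with no replicate. Ccl5 was the largest share in SSDS-GFP 3 (36.4%) and Ccl22 in SSDS-shACOT12 3 (50.5%).

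CSDS against control asks what the stress did without virus. None of the cytokine genes that could be tested was called. Only Il1b, Ccl5, Ccl22 and Cxcl10 had enough counts to be tested, 4 of 10. For Il1b, Ccl5 and Cxcl10 the high SSDS libraries counted toward passing, beside CSDS 1 with 11, 33 and 16 counts. Ccl22 did not depend on them, with 27 counts in CSDS 1, 12 in CSDS 2 and 11 in SSDS-shACOT12 1. In edgeR's quasi-likelihood test with Benjamini-Hochberg adjustment 0 of the 4 had an adjusted p under 0.05, where the background was 0% (0 of 16915 genes). At an unadjusted p under 0.05 there were 0 of the 4 and 993 of all genes, and the DESeq2 Wald test called 6 genes and gave no adjusted p for any of the 4, which it set aside as count outliers. Ccl5 averaged 1.04 ± 0.885 CPM (SD, n = 3) in CSDS and 0.267 ± 0.183 in the controls, a log2 fold change of 1.89 ± 2.37 (SE, edgeR adjusted p = 0.957). Ccl5 was the 1 gene of the 10 whose CSDS libraries all lay above the controls, against 10.3% of genes tested. Red blood cell markers were higher in the CSDS libraries too, at 331.5 to 385.8 CPM against 87.7 to 120 in the controls, with CSDS 1 the highest; their part in the cytokine levels was not tested. Hbb-bs, a beta globin, had a log2 fold change of 1.68 ± 0.25 (SE, edgeR adjusted p = 0.207), and 0 of the 5 markers were called. In the high libraries these markers were at 67.0 CPM (SSDS-GFP 3) and 204.8 (SSDS-shACOT12 3). The log2 fold changes of the other tested cytokines were 1.34 ± 2.42 for Ccl22, 1.29 ± 1.37 for Cxcl10 and 0.22 ± 1.85 for Il1b, with edgeR adjusted p from 0.944 to 0.997. Without CSDS 1 they were 0.94 for Ccl5, 0.47 for Ccl22, -0.19 for Cxcl10 and -0.71 for Il1b. With genes of few counts kept, 0 of the 10 were called, against a background of 0.403%.

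SSDS-GFP against control compares groups that differ in both stress and virus, which cannot be told apart here. Its means were led by 1 library. Ccl5 averaged 26.5 ± 45.8 CPM (SD, n = 3) in SSDS-GFP, Ccl22 23.1 ± 39.4 and Cxcl10 1.90 ± 2.76, against 0.267 ± 0.183, 0.339 ± 0.0519 and 0.172 ± 0.103 in the controls. The SD was above the mean for each of the 3 in SSDS-GFP. The log2 fold changes were 6.57 ± 2.03 for Ccl5, 6.07 ± 2.04 for Ccl22, 3.93 ± 1.53 for Il1b and 3.46 ± 1.20 for Cxcl10 (SE, edgeR adjusted p = 0.167, 0.19, 0.252 and 0.203). None of the 4 was called, beside a background of 0.0946% (16 genes), though all 4 had an unadjusted p under 0.05, as did 2563 genes in all. The high SSDS libraries counted toward Il1b, Ccl5 and Cxcl10 passing the filter. The genes were also selected on these counts, so the 4 cannot be weighed against the 2563. DESeq2 called 527 genes and gave these 4 no adjusted p. Ccl4, at 0 in all controls and 3, 1 and 127 counts in SSDS-GFP, was the 1 gene of the 10 whose groups did not overlap, against 12.5% of genes tested.

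Without SSDS-GFP 3 the log2 fold changes against control were -1.34 for Ccl5, 0.03 for Ccl22, -1.99 for Il1b and 0.83 for Cxcl10. When genes with few counts were kept (32777 genes), all 10 were called higher in SSDS-GFP, against a background of 1.85%. The edgeR adjusted p ran from 1.16e-14 (Ccl5) to 0.000292 (Cxcl10). For Ccl5 the log2 fold change was 6.55 ± 0.65 (SE) there and 6.57 ± 2.03 in the filtered fit. Its lower p thus came from the smaller SE, on a mean still led by SSDS-GFP 3. Without SSDS-GFP 3 the fit with few-count genes kept called 0 of the 10 and 280 genes.

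SSDS-shACOT12 against SSDS-GFP asks what the liver knockdown changed under SSDS. The 4 tested genes had lower means with the knockdown and were not called. Ccl5 averaged 2.79 ± 3.72 CPM (SD, n = 3) in SSDS-shACOT12, Ccl22 5.67 ± 9.18, Il1b 1.01 ± 1.27 and Cxcl10 0.517 ± 0.467. The log2 fold changes were -3.25 ± 1.54 for Ccl5, -2.17 ± 1.31 for Il1b, -2.03 ± 1.501 for Ccl22 and -1.89 ± 1.02 for Cxcl10 (SE, edgeR adjusted p = 0.803 for each). The background of calls was 0%, with 766 genes and 0 of the 4 at an unadjusted p under 0.05, and DESeq2 also called 0 genes. In 0 of the 10 genes did the libraries of the groups separate, where 2.24% of genes tested lay wholly higher and 2.57% wholly lower with the knockdown.

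The direction turned on SSDS-GFP 3. Without it the log2 fold changes were 4.65 for Ccl5, 4.01 for Ccl22, 3.74 for Il1b and 0.73 for Cxcl10, all toward more RNA with the knockdown (edgeR adjusted p = 0.428, 0.428, 0.428 and 0.743). With genes of few counts kept, 8 of the 10 were called lower with the knockdown, all but Il12b and Cxcl10, against a background of 0.329%. The edgeR adjusted p ran from 2.03e-06 (Ccl5) to 0.0302 (Il1b). For Ccl5 the SE was 0.496 there and 1.54 in the filtered fit, at nearly the same log2 fold change. Without SSDS-GFP 3 the fit with few-count genes kept called 3 of the 10 and 565 of 32455 genes. All 3 were higher: Ccl22 at 3.99 (edgeR adjusted p = 1.95e-11), Ccl5 at 4.64 (4.48e-08) and Il1b at 3.73 (0.00826). Their SSDS-shACOT12 counts were 11, 1 and 263 (Ccl22), 17, 4 and 114 (Ccl5) and 6, 3 and 40 (Il1b), led by SSDS-shACOT12 3. With SSDS-shACOT12 3 left out as well, the filtered fit gave 2.58 for Ccl5 and 0.12 for Ccl22, neither called.

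**Figure D3:**
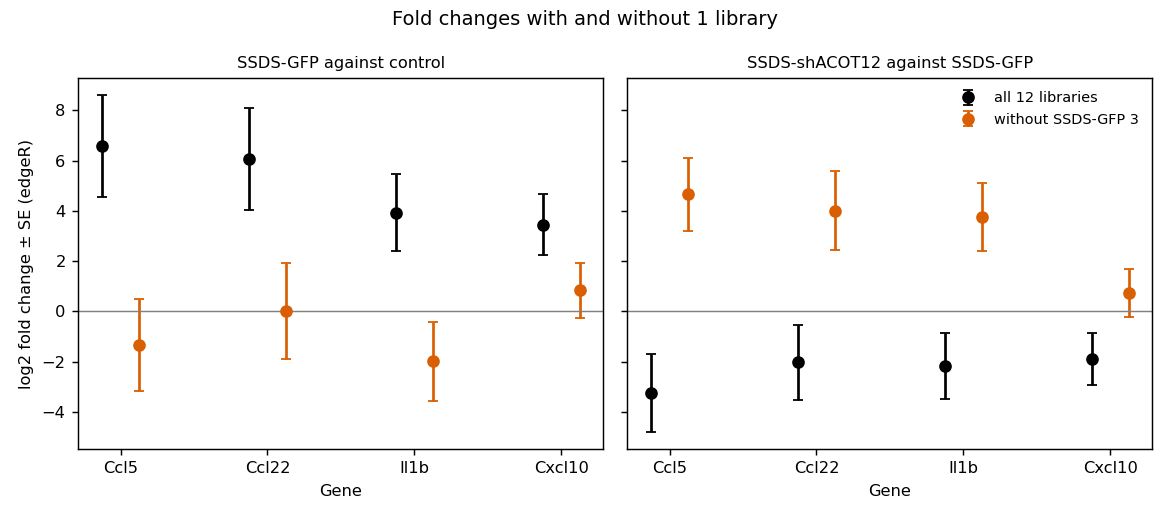
log2 fold change (vertical, edgeR, bars are SE) of the 4 tested genes (horizontal) in SSDS-GFP against control and SSDS-shACOT12 against SSDS-GFP, with all 12 libraries and without SSDS-GFP 3. All 4 genes change sign on the right, for example Ccl5 from -3.25 to 4.65.

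Few receptors of these ligands shared the pattern. Of 18 receptor genes 11 were tested, 0 were called in any of the 3 comparisons, and 1 of the 11 (9.09%) was highest in SSDS-GFP 3, against 8.6% of all genes. Their median log2 fold change was -0.22 in CSDS, -0.30 in SSDS-GFP against control and -0.04 with the knockdown, where all genes tested had medians of 0.00, 0.01 and 0.01. Of the tested receptors the one highest in SSDS-GFP 3 was Tnfrsf1b, the inducible Tnf receptor, at 241 counts in SSDS-GFP 3, 78 in SSDS-shACOT12 3 and 34 to 80 elsewhere. Tnfrsf1a, the widely expressed Tnf receptor, had 172 counts in SSDS-GFP 3 and was highest in SSDS-shACOT12 3 at 244. Il1rap, the shared chain of interleukin 1 receptors, had log2 fold changes of -0.33 ± 0.17 in CSDS, -0.49 ± 0.17 in SSDS-GFP against control and -0.41 ± 0.17 with the knockdown (SE, edgeR adjusted p = 0.867, 0.204 and 0.803). Il1r1, the signalling receptor of interleukin 1, had -0.80 ± 0.32 with the knockdown (0.803).

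Per length, the most abundant receptor was Ackr1, a chemokine scavenger of venule endothelium, at a mean of 31.5 CPM per kb. Il1rap (5.68) and Il6st, which encodes gp130 (5.14), came next. Receptors of blood leukocytes were near 0: Ccr2 had at most 10 counts in a library, Cxcr3 at most 6, and Ccr4, the receptor of Ccl22, at most 1. A pair of receptors with too few counts to test was also highest in SSDS-GFP 3: Il1r2, the decoy receptor of interleukin 1, had 24 counts there, 12 in SSDS-shACOT12 3 and 0 to 7 elsewhere, and Ccr1 had 23, 5 and 0 to 5. With Tnfrsf1b this made 3 of the 18.

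Genes that process or block these cytokines were partly higher in SSDS-GFP 3. Of 11 such genes 10 were tested, 4 were highest in SSDS-GFP 3 and 0 were called in any comparison, with medians of 0.10 in CSDS, 0.28 in SSDS-GFP against control and -0.24 with the knockdown. Casp1, the enzyme that cuts the Il1b precursor, had 82 counts in SSDS-GFP 3, 20 in SSDS-shACOT12 3 and 16 to 49 elsewhere. Its log2 fold change with the knockdown was -0.76 ± 0.52 (SE, edgeR adjusted p = 0.803). Pycard, the inflammasome adaptor, had 0.85 ± 0.31 in SSDS-GFP against control (0.215), and Aim2, a DNA sensor, had -1.12 ± 0.24 (0.107). Il1rn, the receptor antagonist that blocks interleukin 1, is named for its counts, seen beforehand: 135 in SSDS-GFP 3, 20 in SSDS-shACOT12 3 and at most 1 in any other library.

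The 31 genes of Toll-like receptors and NF-kB signalling, the upstream machinery, were all tested and 0 were called in any comparison. Of these 7 (22.6%) were highest in SSDS-GFP 3, and the medians were -0.08 in CSDS, 0.11 in SSDS-GFP against control and -0.02 with the knockdown. Cd14, the co-receptor for lipopolysaccharide, had 173 counts in SSDS-GFP 3, 61 in SSDS-shACOT12 3 and 26 to 58 elsewhere. Its log2 fold change in SSDS-GFP against control was 1.28 ± 0.40 (SE, edgeR adjusted p = 0.175). Tlr4, its partner receptor, had 20 counts in SSDS-GFP 3, within the 3 to 26 of the others.

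Many NF-kB target genes and feedback inhibitors were at their highest in SSDS-GFP 3. Of 20 genes 17 were tested, 11 (64.7%) were highest in SSDS-GFP 3, and 0 were called in any comparison. The median log2 fold change was 0.42 in SSDS-GFP against control and 0.06 without SSDS-GFP 3, and -0.26 with the knockdown and 0.19 without it. Summed, the 20 genes stood at 441.6 CPM in SSDS-GFP 3, within the control range of 415.5 to 451.9. The largest parts of that sum were Sod2 at 132 CPM and Cyld at 85.4, so it says little of less abundant genes. Ptgs2, Cyld and Nfkbiz were lower in SSDS-GFP 3, at 17.9, 85.4 and 7.88 CPM, than in any other library. Ptgs2 was highest in SSDS-shACOT12 3, at 76.5 CPM. Icam1, an adhesion molecule for leukocytes, had 132 counts in SSDS-GFP 3, 56 in SSDS-shACOT12 3 and 25 to 65 elsewhere. Nos2, the inducible nitric oxide synthase, had 188, 34 and 2 to 16 counts. Nfkbia, which encodes the inhibitor IkB-alpha, had 534 counts in SSDS-GFP 3, 331 in SSDS-shACOT12 3 and 236 to 440 elsewhere; its log2 fold change with the knockdown was -0.53 ± 0.21 (SE, edgeR adjusted p = 0.803).

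Some other cytokines and chemokines shared the pattern. Of 32 other cytokine genes 16 were tested, 5 were highest in SSDS-GFP 3, and Il17a and Ifng had 0 counts in all libraries. Il1a, the other interleukin 1 agonist, had 293 counts in SSDS-GFP 3, 20 in SSDS-shACOT12 3 and 1 to 16 elsewhere. Its log2 fold changes were 4.04 ± 1.24 in SSDS-GFP against control and -2.86 ± 1.12 with the knockdown (SE, edgeR adjusted p = 0.165 and 0.803). Mif, a cytokine stored in many cells, was the most abundant per length at a mean of 213.1 CPM per kb, and was highest in SSDS-shACOT12 3. The list's median was 0.02 in CSDS, 0.24 in SSDS-GFP against control and -0.14 with the knockdown, and 0 of the 16 were called in any comparison.

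Of 30 other chemokines 11 were tested and 6 were highest in SSDS-GFP 3, with 0 called in any comparison and medians of -0.25, 0.36 and -0.30. Ccl17, the other ligand of CCR4, had 275 counts in SSDS-GFP 3, 71 in SSDS-shACOT12 3 and 8 to 20 elsewhere. Cxcl16 had 160, 25 and 9 to 26, and Ccl12, a monocyte attractant like Ccl2, had 51, 7 and 1 to 13. Neutrophil attractants, named with their counts seen, were near 0 outside the 2 libraries: Cxcl2 had 217, 33 and 0 to 6 counts, and Cxcl3 146, 19 and 0 to 2. Cx3cl1, the neuronal fractalkine and the most abundant of the list per length (131.6 CPM per kb), had 9101 counts in SSDS-GFP 3, within the 6177 to 11570 of the other 10 libraries. Cxcl14 and Ccl27a, abundant as well, had the high libraries as their top pair, with 2479 and 1305 counts in SSDS-GFP 3, 2106 and 1220 in SSDS-shACOT12 3, and 1219 to 2112 and 632 to 1061 elsewhere.

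Interferon response genes were highest in SSDS-GFP 3 for 17 of 24 tested (70.8%), and 0 were called in any comparison. Their summed level was 272 CPM in SSDS-GFP 3, 107.9 to 191.2 in the controls, 119.7 to 162.6 in CSDS and 107.9 to 123.2 in SSDS-shACOT12. By this sum SSDS-shACOT12 3 was not second, though 3 of the 24 genes (12.5%, against 2.31% of all genes) had the cytokines' order of libraries. These were Ifit3 (215, 162 and 77 to 156 elsewhere), Bst2 (363, 168 and 56 to 156) and Stat2 (509, 415 and 317 to 400). Ifit1, an antiviral effector, had 128 counts in SSDS-GFP 3, 28 in SSDS-shACOT12 3 and 26 to 97 elsewhere, and Rsad2 had 198, 9 and 8 to 60. The log2 fold change of Ifit1 with the knockdown was -1.41 ± 0.41 (SE, edgeR adjusted p = 0.803). The median of the list was -0.76 with the knockdown and -0.04 without SSDS-GFP 3.

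Markers of the cells that could make these transcripts were read beside them. In bulk tissue fewer cells of a type and less RNA per cell cannot be told apart. The 18 microglia markers summed to 462.5 to 554.6 CPM in SSDS-GFP, 471.6 to 546.1 in the controls, 498.2 to 580.3 in CSDS and 450.3 to 574.2 in SSDS-shACOT12, and 0 of the 18 were highest in SSDS-GFP 3. P2ry12, a receptor of resting microglia, had 343 counts in SSDS-GFP 3, 190 in SSDS-shACOT12 3 and 347 to 729 in the other 10 libraries. Other microglia markers went the opposite way: C1qa, C1qb, C1qc, Tyrobp, Aif1 and Cd68, 6 of the 18, were highest in SSDS-shACOT12 3 and second in SSDS-GFP 3. C1qa, a complement subunit, had 1214 counts in SSDS-GFP 3, 1261 in SSDS-shACOT12 3 and 618 to 1064 elsewhere, and Cd68, a lysosomal protein of phagocytes, 162, 220 and 62 to 148. The defining markers of neurons and astrocytes were present in each library. Both ends of the neuron range, and the upper end of the astrocyte range alone, lay in the high libraries. Neuron markers, led by Camk2a, summed to 7618 CPM in SSDS-GFP 3, the lowest, and 9920 in SSDS-shACOT12 3, the highest, with 8515 to 9839 elsewhere. Astrocyte markers, led by Slc1a2, were at 5129 CPM in SSDS-shACOT12 3, 4224 in SSDS-GFP 3 and 3667 to 4664 elsewhere. Gfap, the intermediate filament of reactive astrocytes, had 19240 counts in SSDS-shACOT12 3, 5469 in SSDS-GFP 3 and 3467 to 6403 elsewhere. Endothelial markers lay between 229.7 and 334.8 CPM, with SSDS-GFP 3 at 258.7 and SSDS-shACOT12 3 at 285.4.

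Among rarer cells, the 8 dendritic cell markers summed to 39.1 CPM in SSDS-GFP 3 and 21.5 at most in SSDS-shACOT12, against 15.03 to 19.7 in the controls and CSDS. Most of this excess was Ccr7, the receptor by which mature dendritic cells reach lymph nodes, with 274 counts in SSDS-GFP 3, 57 in SSDS-shACOT12 3 and 0 to 5 elsewhere. Batf3, a factor of cross-presenting dendritic cells, had 64, 58 and 6 to 26 counts. Itgax, which encodes CD11c, had 30, 10 and 0 to 8, so 3 of the 8 markers had the cytokines' order of libraries. Of the 4 markers tested 1 had this order (25%), against 2.31% of all genes tested. Clec9a had 19, 8 and 0 to 20 counts, Cd209a 2, 0 and 0 to 7, and Xcr1 1, 0 and 0 to 1, each highest in a control or CSDS library. Flt3 had 184, 133 and 120 to 170 counts, and Zbtb46, a defining factor of these cells, 111, 82 and 81 to 173. The 12 monocyte and neutrophil markers reached 8.91 CPM among the SSDS-GFP libraries and 9.90 among those of SSDS-shACOT12, against at most 3.38 in the controls and CSDS. In SSDS-GFP 3 this was mostly Chil3 (94 counts, against 9 in SSDS-shACOT12 3 and 0 to 5 elsewhere), and in SSDS-shACOT12 3 S100a8 and S100a9 (55 each). Ly6c2 (14, 5 and 0 to 4 counts) and Plac8 (11, 5 and 0 to 7) were also highest in SSDS-GFP 3. With Chil3 this made 3 of the 12. Ly6g, which defines neutrophils, had 0 counts in all libraries. Lymphocyte markers were at 11.9 CPM (SSDS-GFP 3) and 11.7 CPM (SSDS-shACOT12 3), within the control range of 9.01 to 20.2. Border macrophage markers were at 15.5 CPM in SSDS-GFP 3, within the control range of 15.3 to 18.6, and at 21.4 in SSDS-shACOT12 3 and 22.7 in CSDS 1, above it. Of these Cd163 had 9 counts in SSDS-GFP 3, 43 in SSDS-shACOT12 3 and 7 to 33 elsewhere, and Stab1 212, 269 and 115 to 235. The part of any of these cells in the cytokine levels was not tested.

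**Figure D4:**
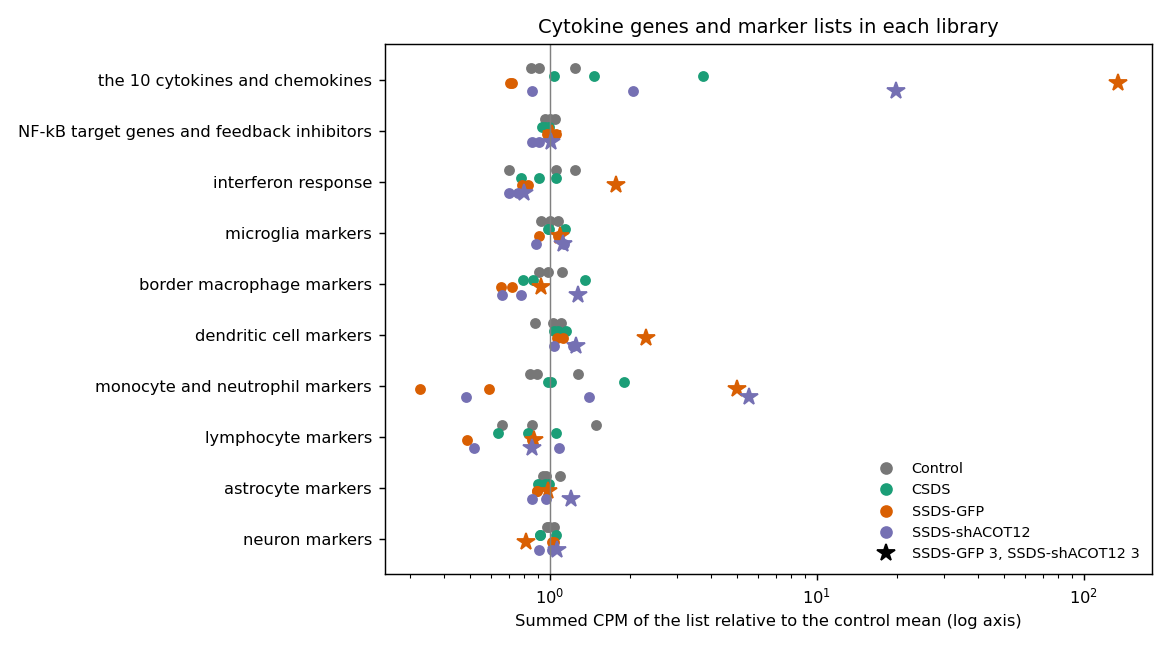
Summed CPM of the 10 genes and of 9 gene lists relative to the control mean (horizontal, log axis), 1 point per library, with stars for SSDS-GFP 3 and SSDS-shACOT12 3. The 10 genes reach 218.5 CPM at the SSDS-GFP star and 32.2 CPM at the SSDS-shACOT12 star, while microglia markers stay between 450.3 and 580.3 CPM in all 12 libraries.

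The genes whose pattern was most like each tested cytokine were found by Pearson's r of log2 CPM over the 12 libraries, among tested genes whose mean log2 CPM was 0 or more. For Ccl5 they were Irf8 (0.963), a myeloid transcription factor, Ifitm1 (0.955) and Procr (0.948). For Il1b they were Tnfrsf9 (0.952), Csf2rb (0.948) and Irf8 (0.946). Ccl22 was closest to Myo1g (0.951), Lgals3 (0.934) and Lsp1 (0.934), and Cxcl10 to Lgals3 (0.927), Ccl22 (0.916) and Irf8 (0.911). Without SSDS-GFP 3 and SSDS-shACOT12 3 (10 libraries) these values lay between 0.359 (Ccl22 with Lsp1) and 0.825 (Ccl5 with Irf8). The points share libraries and depth, and at counts as low as those of the other 10 libraries such values describe little beyond the 2 high libraries. Procr itself had 585 counts in SSDS-GFP 3, 40 in SSDS-shACOT12 3 and 4 to 28 elsewhere.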

How the data were processed

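RNA was sequenced from ventral hippocampus in 12 libraries (4 groups of 3). Per the submitters' processing notes, the tools were HISAT2 2.0.5, featureCounts 1.5.0-p3 and DESeq2 (no version), on mm10; strand setting and annotation release are not given in the sources used here. Counts as deposited are whole and unscaled. FPKM values were scaled by the authors for gene length and library size, and gene length is in bases per the file headers. Without stated strand, antisense reads cannot be told apart.

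The filterByExpr function (edgeR 4.0.16, R 4.3.3) with a minimum count of 10 and a minimum total of 15 left 16915 genes, and TMM scaling was used. CPM were taken from edgeR on the TMM-scaled library size, and a quasi-likelihood model of group over all 12 libraries tested 3 contrasts, 2-sided, with Benjamini-Hochberg adjusted p under 0.05. Where a symbol had several rows, the row with most counts was used. Ratios of 2 libraries carry 95% intervals from exact binomial counting; read duplicates make these cover counting error only.

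The 10 genes, the lists and the rule for named genes were chosen with earlier results of these data known. The lists cover receptors, processing enzymes and inhibitors, Toll-like receptor and NF-kB signalling, NF-kB targets, other cytokines, other chemokines, interferon response, and markers of microglia, border macrophages, monocytes and neutrophils, lymphocytes, dendritic cells, red blood cells, endothelium, astrocytes and neurons. The rule took the receptors, up to 3 genes of smallest p per contrast and 3 of highest level per list, from which the text gives examples; 1 receptor gene is not reported here by name. On simulated counts of 16915 genes for SSDS-shACOT12 against SSDS-GFP, 8, 44, 86 and 90% of genes changed 1.5, 2, 4 and 16-fold were recovered. There were 7 false calls. The changes were put into all 3 libraries of a group, so these figures do not cover genes high in 1 library.

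Deviations from group means correlated at 0.196, 0.419 and 0.353 for same-numbered libraries of the SSDS groups, all over 0.1, so a fit with the number as a block was made too; the labels do not say what a number shares. Alternatives were DESeq2 1.42.0 (Wald test and size factors), no filter, a 50-count filter, only the 6 libraries compared, the block, each library left out, and limma 3.58.1 on log2 FPKM with 0.1 or 1 added. Leaving out both high libraries, dropping the filter and SSDS-GFP 3 together, and the block among SSDS libraries alone were chosen after seeing the data.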

Additional observations from a re-analysis of the deposited data

How the results depend on the processing

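The 10 genes are few counts in 10 of the 12 libraries, so depth limits any statement about them there, and 6 of the 10 did not pass the main filter. The number of them called moved only where the filter was dropped, to 8 with the knockdown and 10 in SSDS-GFP against control, and to 3 with the knockdown when SSDS-GFP 3 was dropped too. The other alternatives called 0 of those they could test. A filter of 50 counts left none, and the DESeq2 Wald test gave them no adjusted p. With only the 6 libraries compared, 2 could be tested with the knockdown and none in the other contrasts, and 2 could be tested without both high libraries or with the block among SSDS libraries alone.

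Genes called, 0 in CSDS, 0 with the knockdown and 16 in SSDS-GFP against control, became 6, 0 and 527 with the DESeq2 Wald test, 132, 108 and 608 with no filter, and 84, 0 and 34 with only the 6 libraries compared. With 1 library left out they ran from 0 to 1, 0 to 985 (985 without SSDS-shACOT12 2, 2 without SSDS-shACOT12 1) and 4 to 15. With the replicate block, the paired fit, they were 0, 0 and 9, and it changed no call among the 10 genes. Without both high libraries CSDS had 3 calls. With no filter and no SSDS-GFP 3 the counts were 565 with the knockdown and 280 in SSDS-GFP against control.

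In the alternatives run, directions reversed only without CSDS 1 or SSDS-GFP 3. With 1 library left out, log2 fold changes in CSDS ran from -0.71 to 0.63 (Il1b) and -0.19 to 1.73 (Cxcl10). With the knockdown they ran from -3.98 to 3.74 (Il1b), -5.32 to 4.65 (Ccl5), -5.91 to 4.01 (Ccl22) and -2.91 to 0.73 (Cxcl10). In SSDS-GFP against control they ran from -1.99 to 4.49 (Il1b) and -1.34 to 7.28 (Ccl5). Without both high libraries they were 2.58 (Ccl5) and 0.12 (Ccl22) with the knockdown and -1.34 (Ccl5) against control. With no filter and no SSDS-GFP 3 they were 3.73 (Il1b), 4.64 (Ccl5), 3.99 (Ccl22) and 0.72 (Cxcl10) with the knockdown, and -2.00 (Il1b) and -1.34 (Ccl5) against control. The cause was not tested. On log2 FPKM with 0.1 added, limma gave -0.04 (Ccl5) and -0.19 (Il1b) with the knockdown. In SSDS-GFP against control it gave 2.11 (Ccl5) and 0.98 (Il1b). With 1 added, the values were -0.74 (Ccl5) and -0.51 (Il1b) with the knockdown, and 1.875 (Ccl5) and 0.82 (Il1b) against control. With the replicate block Ccl5 was 3.27 in CSDS, -2.19 with the knockdown and 5.48 in SSDS-GFP against control.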
